A study of Mus musculus with 12 samples.

Results

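Of 14042 genes with a usable mRNA read, 91 had a transient peak during neural differentiation of P19 cells, being higher on day 2 (D2) or day 4 (D4) than both before retinoic acid (D0) and at the end of the time course (D6). P19 is a mouse embryonal carcinoma line. Wild-type cells were cultured undifferentiated at D0, or for 2, 4 and 6 days in a neural differentiation medium with 500 nM retinoic acid, and 3 biological replicates were taken at each of the 4 days, giving 12 libraries. Their native poly(A) RNA was sequenced on nanopores, so that 1 read stands for 1 RNA molecule and also gives the length of its poly(A) tail. Levels are in CPM, the reads of a gene for each 1000000 usable mRNA reads of the library. A gene was taken when the higher of its D2 and D4 means was at least 30 CPM and at least 2 times both the D0 mean and the D6 mean. These means chose the genes, so the levels below are given as a description without a test. Among the 5133 genes with a D2 or D4 mean of at least 30 CPM, the 91 genes made up 1.77%. Of them, 74 were highest at D2 and 17 at D4.

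Retinoic acid is a derivative of vitamin A that enters the nucleus and binds the retinoic acid receptors, which sit with retinoid X receptors on response elements of their target genes. Cellular retinoic acid binding proteins carry it in the cytoplasm, and enzymes of the Cyp26 family degrade it. In embryonal carcinoma cells and in the embryo, retinoic acid moves pluripotent cells towards neural progenitors with a hindbrain or spinal cord character, which later leave the cell cycle and become neurons.

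The usable reads came to 4274320, with 120326 in the smallest library (D2 replicate 1) and 613756 in the largest (D0 replicate 2), and D2 was the shallowest day with 545795 reads in its 3 libraries. The limit of 30 CPM stood for 16.4 reads over the D2 libraries and 33.3 over the D4 libraries. Across the 91 genes the reads on the peak day ran from 15 to 2433 with a median of 36.0, so that many of the smaller peaks rest on few reads. The sequencing runs each held 1 day, and day and run cannot be told apart. In the run names the D0 runs belong to an earlier month and the D2 and D4 runs to a later one, while D6 was sequenced in both. The peak was at least 2 times the D6 level for 81 genes with the 461741 reads of the earlier month and for 88 with the 575145 reads of the later month. Both sets of D6 reads had gone into the rule, so nothing is read from these counts. The D0 runs bear the mark D2 in names that describe undifferentiated cells, and the sample labels were followed. Pou5f1, the pluripotency factor Oct4, was at 1550 ± 106 CPM at D0 and 6.92 ± 6.34 CPM at D2 (SD, n = 3 each), as the labels would have it. The RNA was from whole cultures, in which fewer cells of a type and less RNA per cell cannot be told apart.

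The 91 genes together took 0.316% ± 0.0139 of the D0 reads, 1.68% ± 0.0657 of those at D2, 1.2% ± 0.0322 by D4 and 0.518% ± 0.00401 on the last day (SD, n = 3 each). The median gene was 2.39 times above the higher of its 2 flanking days. For 24 genes the peak was at least 3 times the higher flank and for 51 it was under 2.5 times. The median peak mean was 53.8 CPM, 22 genes reached 100 CPM and 40 stayed under 50 CPM. In 65 of the 74 genes with a D2 peak every D2 library lay above every D0 and D6 library, and 3.74% of the 9309 genes with at least 30 reads had this order. The same held for the D4 libraries in 16 of the 17 genes with a D4 peak, beside 2.51% of all genes. The rule had chosen the genes on these values, so nothing is read from the difference.

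**Figure D1:**
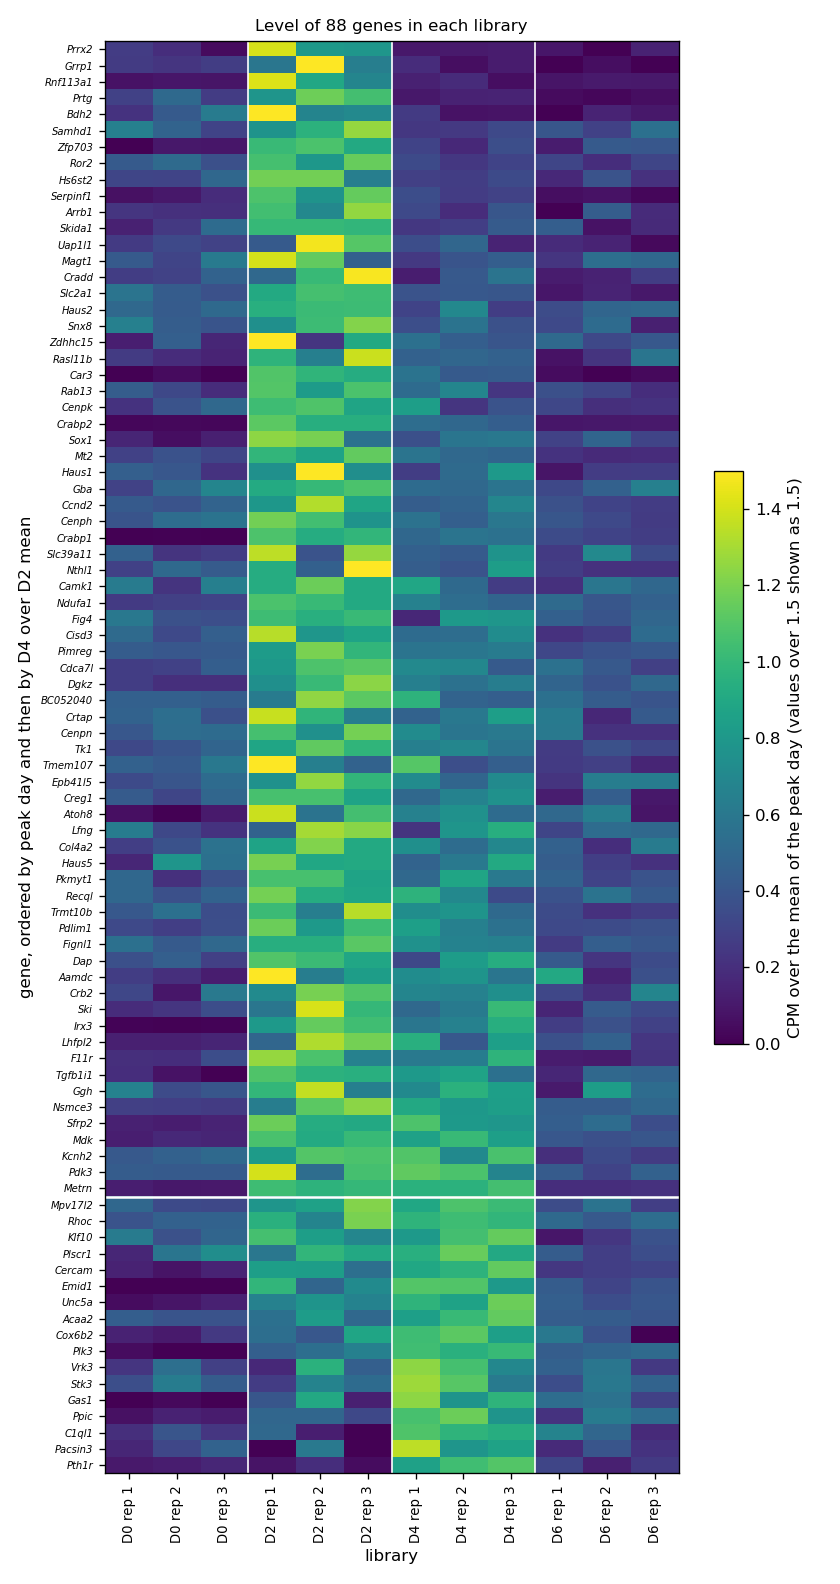
Each row is 1 of 88 of the genes and each column 1 of the 12 libraries, and colour gives the CPM divided by the gene's mean on its peak day (values over 1.5 drawn as 1.5). The 71 genes above the white line are brightest in the D2 columns and the 17 below it in the D4 columns, ordered by how much of the D2 level is left at D4.

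The members fell into broad groups by their known roles. There were 2 retinoid binding proteins, 11 transcription factors and cofactors, 16 ligands, receptors and signalling proteins, 13 genes of metabolism and mitochondria, 17 of cell division, DNA synthesis and repair, 12 of adhesion, polarity, matrix and cytoskeleton, 10 of ions, metals and membranes, and 10 of other or less known function. D2 peaks made up most of every group, from 8 of the 12 adhesion and matrix genes to 16 of the 17 cell division genes and both retinoid binding proteins. Of all 91 genes 74 peaked at D2, so nothing is read from these counts about the groups.

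Both retinoid binding proteins, Crabp2 and Crabp1, were among the 10 genes with the highest peak means. Crabp2 (chr3:87948666-87953376 on mm10) hands retinoic acid to its nuclear receptor. It stood at 53.4, 76.6 and 61.7 CPM in the 3 libraries of D0, at 2518, 2120 and 2109 CPM at D2, at 1205, 1128 and 1003 CPM at D4 and at 209.9, 212 and 229 CPM at D6. The D2 mean of 2249 ± 233 CPM was 35.2 times the D0 mean and 10.4 times the D6 mean of 217 ± 10.3 CPM (SD, n = 3 each), with no overlap between the days. Crabp1 (chr9:54764748-54773110) binds retinoic acid in the cytoplasm. It was nearly silent at D0 with 4.45, 11.4 and 5.78 CPM, reached 1646, 1419 and 1508 CPM at D2, and stood at 765, 882 and 853 CPM at D4 and at 523, 457 and 416 CPM at D6. Its D2 mean of 1524 ± 114 CPM was 211 times the D0 mean but only 3.27 times the D6 mean. The 2 genes therefore differed in where they ended: at D6 Crabp2 was 3.4 times its D0 mean and Crabp1 64.5 times.

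Crabp1 and Crabp2 were the only genes of a fixed list of retinoic acid handling that met the rule. Of the 15 genes of this pathway list with at least 30 reads, 8 were higher and 1 was lower at D2 than at D0 by limma-voom at an adjusted p of at most 0.05, beside 4.48% higher and 6.32% lower among all 9309 genes (417 and 588 genes, or 720 and 373 when scaled by library totals). The 8 include Crabp1 and Crabp2. The median log2 difference of the list was 1.83, beside -0.05 over all genes. At D4 the list again had 8 higher and 1 lower, beside 12.6% and 12.7% of all genes (1171 and 1185 genes, or 1537 and 921 by library totals). Cyp26b1, an enzyme that degrades retinoic acid, had no read at D0 and then 9.57, 172 and 428 CPM at D2, D4 and D6, higher at D4 by limma with an adjusted p of 1.18e-12. Dhrs3, which turns retinal back to retinol, and the receptor Rarb also rose by D4 (limma adjusted p = 7.02e-07 and 3.99e-09). Dhrs3 was at 1.19, 17.5, 37.8 and 121 CPM on the 4 days and Rarb at 1.09, 59.3, 66.6 and 90.9 CPM, with 2 reads each at D0. Fabp5, which also binds retinoic acid, was the gene that fell, from 2190 CPM at D0 to 589 CPM at D2 (log2 difference -2.09, SE 0.12, limma adjusted p = 2.78e-22).

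**Figure D2:**
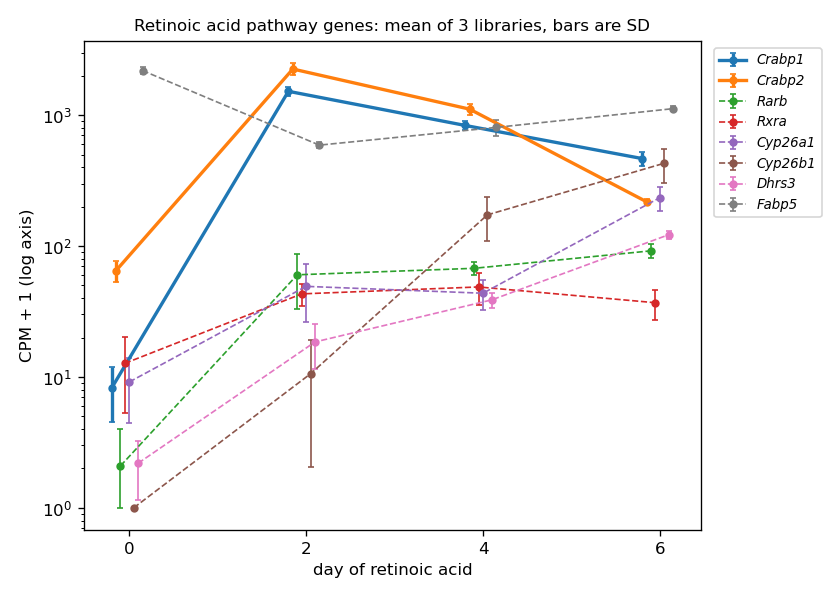
Mean level of 8 retinoic acid pathway genes by day (CPM + 1, log axis; bars are the SD of 3 libraries). The solid lines of Crabp1 and Crabp2 are highest at D2 and come down to 465 and 217 CPM at D6, while Rarb, Cyp26a1, Cyp26b1 and Dhrs3, dashed, are highest at D6.

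The stretches just before the start of 4 of the genes are shown as part of the wider windows searched for motifs below. Crabp1, F11r and Rnf113a1 peaked at D2 and Pth1r at D4. They are from RefSeq on GRCm38.p6 (mm10), written 5′ to 3′ on the strand of the gene. Crabp1 lies on the plus strand of chr9 with the stretch at chr9:54764628-54764747, Pth1r on the minus strand with chr9:110743687-110743806, F11r on the plus strand with chr1:171437415-171437534, and Rnf113a1 on the plus strand with chrX:37191164-37191221. Pth1r, F11r and Rnf113a1 are among the 6 genes with the largest ratio that had a promoter in the table, of which Serpinf1, Prrx2 and Metrn had 29 or fewer bases outside annotated exons and are not shown, and Crabp1 was added after its values were seen. Capitals mark a CCAAT box, and the other 3 stretches hold none of the motifs searched.
Crabp1: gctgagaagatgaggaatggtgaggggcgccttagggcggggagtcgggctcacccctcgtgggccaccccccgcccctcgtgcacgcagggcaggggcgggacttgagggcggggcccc
Pth1r: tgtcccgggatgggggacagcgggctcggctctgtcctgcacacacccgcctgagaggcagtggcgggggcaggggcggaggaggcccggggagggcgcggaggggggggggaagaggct
F11r: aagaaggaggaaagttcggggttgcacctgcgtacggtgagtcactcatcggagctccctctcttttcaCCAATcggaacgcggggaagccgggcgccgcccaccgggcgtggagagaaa
Rnf113a1: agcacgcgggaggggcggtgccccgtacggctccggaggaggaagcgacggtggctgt
These stretches are rich in G and C, 74.2% for Crabp1, 76.7% for Pth1r, 61.7% for F11r and 74.1% for Rnf113a1.

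The promoter table held 67 of the 91 genes, each as a window of 300 bases from 250 before to 50 after the start, and both strands were searched in the windows of all starts listed for a gene. Direct repeats of the receptor half-sites AGGTCA, with the variants AGTTCA, further GGGTCA, and lastly GGTTCA, spaced by 5, 2 or 1 bases were in the windows of none of the 67 genes, and in 0.0669%, 0.0802% and 0.321% of the 7477 genes with a window and at least 30 reads. A window without these letters says nothing of sites farther away. CCAAT was found for 31 of the 67 genes and for 44.3% of all. CAGCTG was in 10 (16.6% of all), CACGTG in 5 (12.1%), TGGGAA in 15 (25.7%), TATAAA in 6 (7.7%) and TGACGTCA in 2 (4.03%). TGATGNAA was in the windows of Cenpn, Crabp1, Plscr1 and Serpinf1 and in 2.45% of all, and TCACNCCAC in those of Irx3 and Hs6st2 and in 1.3% of all.

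Of the transcription factors, 10 of 11 peaked at D2. Irx3 (chr8:91798525-91802067), an Iroquois homeobox factor of the neural plate, was at 4.45, 3.26 and 3.85 CPM at D0, 241, 340.2 and 309 CPM at D2, 174, 195 and 279.7 CPM at D4 and 81.0, 109.6 and 86.2 CPM at D6. Its D2 mean of 297 ± 50.7 CPM was 77.0 times the D0 mean and 3.22 times the D6 mean (SD, n = 3 each), and the D2 and D4 libraries overlapped. Sox1, one of the earliest factors of neuroectoderm, stood at 13.3, 4.89 and 11.6 CPM at D0, 108, 104 and 48.8 CPM at D2, 31.7, 50.5 and 52.1 CPM at D4 and 25.8, 42 and 26.7 CPM at D6. The third D2 library was well below both others and within the D4 range, but still above all D0 and D6 libraries.

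Prrx2, a paired-related homeobox factor known from mesenchyme, was at 11.1, 8.15 and 1.93 CPM at D0, 58.2, 33.2 and 32.5 CPM at D2, 3.96, 4.59 and 4.74 CPM at D4 and 3.68, 0 and 5.94 CPM at D6. It was near its lowest already at D4. Against the 3 reads of D6 its D2 level was 13.3 times higher over the pooled reads, with an exact 95% interval from 3.97 to 69.6, which covers counting error only.

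The lists of related factors that did not peak show the background of these genes. Beside each list here and below stand the shares over all genes, 4.48% higher and 6.32% lower at D2 and 12.6% and 12.7% at D4. Of 25 neural progenitor transcription factors tested, 9 were higher and 4 lower at D2 than at D0, and 16 and 4 at D4, with medians of 0.70 and 1.58 on the log2 scale beside -0.05 and -0.00 over all genes, the same when genes without reads on a day are set to a floor of 3 reads. Irx3 and Sox1 are 2 of them. Irx5, which lies in the same gene cluster as Irx3, was at 1.48, 59.6, 68.5 and 64.5 CPM on the 4 days and so stayed up at D6, where Irx3 was at 92.3 ± 15.2 CPM (SD, n = 3). Nr2f1 and Dbx1, factors of neural progenitors, were higher at D4 with 160 and 302 CPM than at D0 with 0 and 4.3 CPM (limma adjusted p = 5.31e-13 and 2.04e-15), and Otx2, a forebrain and midbrain factor, was lower (log2 difference -4.53, SE 0.44, limma adjusted p = 8.21e-13). Of 28 Hox genes and cofactors tested, 22 were higher and 0 lower at D2, 27 and 0 at D4, and 28 and 0 at D6, the last beside 19.4% higher and 18.2% lower of all genes (1809 and 1690 genes, or 2588 and 1162 by library totals). Hoxb2, for example, was at 0, 161, 506 and 943 CPM on the 4 days.

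**Figure D3:**
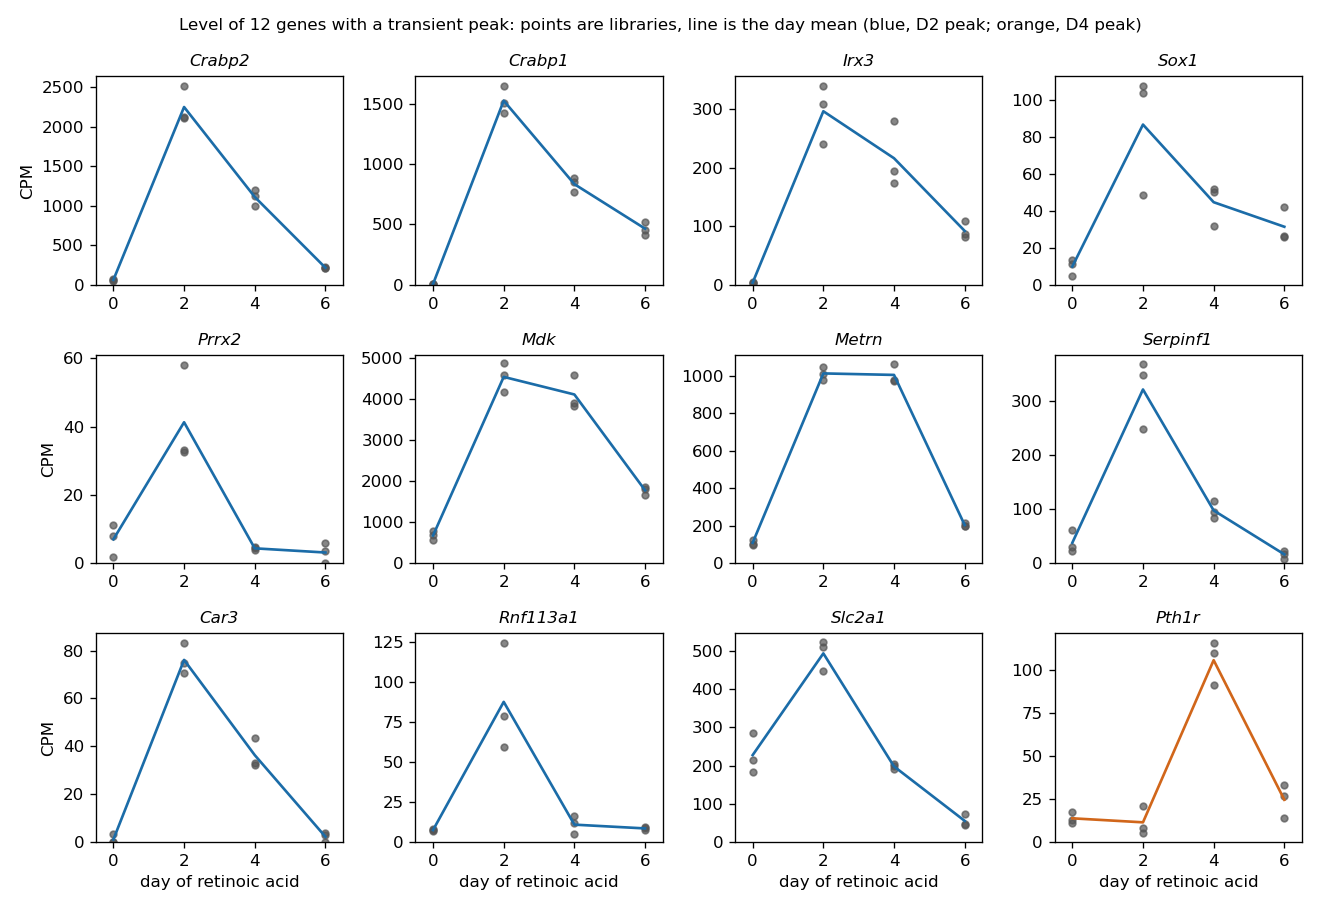
Level of 12 of the genes in CPM (linear axes from 0) by day of retinoic acid, with a point for each library and a line through the means of 3 libraries. Crabp1 and Irx3 stay above D0 at D6, Car3 returns to under 10 CPM, Metrn is as high at D4 (1004 CPM) as at D2 (1012 CPM), and Pth1r peaks at D4 alone.

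Among the ligands and secreted modulators, Mdk had the most reads. Mdk (midkine, chr2:91929828-91931780) is a heparin-binding growth factor first found as a retinoic acid responsive gene. It was at 561, 779 and 698 CPM at D0, 4862, 4161 and 4582 CPM at D2, 3906, 4582 and 3833 CPM at D4 and 1860, 1660 and 1815 CPM at D6. D2 and D4 overlapped and both lay above D6, which lay above D0: the D2 mean of 4535 ± 353 CPM was 6.68 times D0 and 2.55 times D6 (SD, n = 3 each). Of its reads, 38.1% had a mapping quality under 10, which also arises where a read could come from more than one isoform of the gene.

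Metrn (meteorin), a secreted protein of neural progenitors that acts on glia and axons, formed a plateau. It was at 127, 97.8 and 106 CPM at D0, 1047, 979 and 1009 CPM at D2, 971, 976 and 1064 CPM at D4 and 199, 198 and 217 CPM at D6. The D2 and D4 means of 1012 ± 34.2 and 1004 ± 52.2 CPM were alike within their spread, and the peak was 4.94 times D6 (SD, n = 3 each). Serpinf1, a secreted neurotrophic serpin also called PEDF, was at 22.2, 31.0 and 61.7 CPM at D0, 349, 249 and 369 CPM at D2, 115, 85.0 and 94.8 CPM at D4 and 18.4, 23.3 and 8.91 CPM at D6. All D4 libraries were below all D2 libraries, and the D2 mean was 8.42 times D0 and 19.1 times D6. Sfrp2, a secreted modulator of Wnt signals, was at 51.2, 44.0 and 55.9 CPM at D0, 432, 344 and 336 CPM at D2, 400.5, 301 and 292 CPM at D4 and 166, 196 and 131 CPM at D6. Like Mdk it held most of its level at D4 and was 3.26 times its D0 mean at D6.

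Receptors and intracellular signalling genes were lower and more varied. Pth1r, the receptor of parathyroid hormone and its related peptide, was 1 of the 17 genes with a D4 peak: 11.1, 13 and 17.3 CPM at D0, 8.31, 20.7 and 5.42 CPM at D2, 91.2, 110.2 and 116 CPM at D4 and 33.1, 14.0 and 26.7 CPM at D6. Every D4 library was far above those of all other days, and the D4 mean of 106 ± 13 CPM was 4.30 times D6 and 7.65 times D0 (SD, n = 3 each). Arrb1, the scaffold β-arrestin 1 that binds activated receptors, peaked at D2 and was back by D4: it had 11.1, 9.78 and 9.63 CPM at D0, 49.9, 33.2 and 59.6 CPM at D2, 15.9, 9.19 and 19 CPM at D4 and 0, 21.0 and 8.91 CPM at D6. Nearly all of its reads (98.6%) had a mapping quality under 10. Rasl11b, a small Ras-like GTPase, had a D2 mean of 51.2 ± 18.7 CPM, 3.41 times its D6 mean of 15 ± 13.3 CPM (SD, n = 3 each).

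Lfng (lunatic fringe), which modifies Notch receptors, was among the least secure. Its libraries read 22.2, 11.4 and 7.71 CPM at D0, 16.6, 45.6 and 43.4 CPM at D2, 7.93, 27.6 and 33.2 CPM at D4 and 11.1, 18.7 and 17.8 CPM at D6, so that D2 replicate 1 lay within the D0 range. Of the 30 Notch and proneural genes tested, 10 were higher and 1 lower at D2 than at D0, and 17 and 1 at D4, with list medians of 0.67 and 1.04 on the log2 scale, again the same with the floor. Over all genes 4.48% were higher and 6.32% lower at D2 and 12.6% and 12.7% at D4, with medians of -0.05 and -0.0. Hes5, the Notch target of neural progenitors, was at 1.09, 158, 309 and 298 CPM on the 4 days and Neurog1, a proneural factor, at 0, 21.1, 59.4 and 129 CPM. Both were higher at D4 than at D0 (limma adjusted p = 3.89e-14 and 6.78e-11). Gas1, a co-receptor of Hedgehog, peaked at D4 with 51.5, 32.2 and 40.3 CPM, after 0, 1.63 and 0 CPM at D0 and 16.6, 37.3 and 5.42 CPM at D2, and was at 22.1, 23.3 and 11.9 CPM at D6. With Sfrp2 it was 1 of 2 members among the 19 Wnt and Hedgehog genes tested, of which 2 were higher and 3 lower at D2 and 3 and 4 at D4.

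Prtg and Unc5a are 2 further receptors named here after their values were seen. Prtg (protogenin), an immunoglobulin-type receptor of early neuroepithelium, had means of 56.9 ± 21.4, 159.8 ± 31.8, 20.8 ± 4.33 and 6.98 ± 2.15 CPM on the 4 days (SD, n = 3 each), and by D4 was already below its D0 level. Unc5a, a netrin receptor of axon guidance, went the other way with 12.4 ± 6.36, 97.2 ± 9.28, 138 ± 21.1 and 56.0 ± 6.83 CPM (SD, n = 3 each) and peaked at D4.

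The largest ratio of a peak to its higher flank, 34.3, belonged to a metabolic enzyme. Car3 (carbonic anhydrase 3, chr3:14863538-14872523) was at 0, 3.26 and 0 CPM at D0, 83.1, 74.7 and 70.5 CPM at D2, 43.6, 32.2 and 33.2 CPM at D4 and 3.68, 0 and 2.97 CPM at D6. These levels stand for 2, 41, 39 and 2 reads on the 4 days. Over the pooled reads D2 was 59.4 times D0 (exact 95% interval 15.4 to 507) and 38.9 times D6 (10.1 to 332). It was thus close to undetected on the first and the last day.

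Slc2a1, the glucose transporter GLUT1, started from a higher level and ended below it. It was at 285, 215 and 183 CPM at D0, 449, 523 and 509.7 CPM at D2, 190.3, 204 and 199 CPM at D4 and 44.2, 74.6 and 47.5 CPM at D6. The D2 mean of 494 ± 39.5 CPM was 2.17 times D0 and 8.90 times D6 (SD, n = 3 each). Uap1l1, related to a pyrophosphorylase of UDP-N-acetylglucosamine synthesis, had means of 23.1 ± 3.02, 78.7 ± 42, 26.2 ± 13.7 and 9.79 ± 6.1 CPM on the 4 days (SD, n = 3 each), and its 33.2 CPM in D2 replicate 1 lay within the D4 range.

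Ndufa1, a subunit of respiratory complex I, and Rnf113a1, a RING finger protein known from the spliceosome, are neighbours on chrX. They lie on opposite strands, Ndufa1 on the minus strand at chrX:37187588-37191163 and Rnf113a1 on the plus strand at chrX:37191245-37192467, so that their starts face each other across 81 bases, and the Rnf113a1 stretch shown above fills most of this gap. Ndufa1 was at 174, 196 and 206 CPM at D0, 739.7, 697 and 629 CPM at D2, 452, 368 and 332 CPM at D4 and 357, 275 and 321 CPM at D6. Rnf113a1 was at 6.67, 8.15 and 7.71 CPM at D0, 125, 78.8 and 59.6 CPM at D2, 11.9, 16.1 and 4.74 CPM at D4 and 7.37, 9.33 and 8.91 CPM at D6. Rnf113a1 was 10.3 times its higher flank and was back near D0 by D4, whereas Ndufa1 was 2.17 times its higher flank and at D6 still 1.66 times its D0 mean. Mdk and Dgkz, a diacylglycerol kinase named here after its values were seen, are the other pair of neighbours, 1043 bases apart on chr2. The 91 genes were spread over 18 chromosomes, with at most 11 on any of them, chromosome 2.

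Genes of cell division, DNA synthesis and repair were the largest group, and their peaks were low, from 2.01 to 2.78 times the higher flank. Tk1 (thymidine kinase 1) was the member from the list of DNA replication genes, with 90.4 ± 18.3 CPM at D0, 226 ± 29.1 CPM at D2, 144 ± 13.1 CPM at D4 and 71.4 ± 12.5 CPM at D6 (SD, n = 3 each). The whole list of 32 replication genes had 5 higher and 0 lower at D2 than at D0, 2 and 12 at D4, and 0 and 20 at D6. The 30 mitosis genes, with no member among them, had 1 higher and 0 lower at D2, 3 and 4 at D4, and 0 and 16 at D6. The list medians at D2 were 0.14 and 0.20 on the log2 scale and at D6 -0.72 and -0.55. Over all genes 12.6% were higher and 12.7% lower at D4 and 19.4% and 18.2% at D6. The medians over all genes were -0.05 at D2 and 0.02 at D6. A pair of protein families is named after their values were seen. Of the 8 augmin genes (Haus1 to Haus8), which nucleate microtubules in the spindle, Haus1, Haus2 and Haus5 were members, 7 of 8 had their highest mean at D2 beside 22.8% of all genes tested, and 2 were higher and 0 lower at D2 than at D0. Of 20 centromere protein genes with reads, Cenph, Cenpk and Cenpn were members, 10 had their highest mean at D2, and 4 of 19 tested were higher and 0 lower, beside the 4.48% and 6.32% of all genes. The 3 members in each family were chosen for their peak, and the families for these values, so nothing is read from the counts.

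Adhesion, polarity and matrix genes had 8 D2 peaks and 4 D4 peaks. F11r (junctional adhesion molecule A), a protein of tight junctions, was at 13.3, 13 and 23.1 CPM at D0, 83.1, 70.5 and 43.4 CPM at D2, 39.6, 41.3 and 64 CPM at D4 and 7.37, 7.0 and 14.9 CPM at D6, with D2 and D4 overlapping and both above the other days. Its peak was 3.98 times D0 and 6.74 times D6. Cercam, an adhesion protein of the cerebral endothelium, peaked at D4 with 169 ± 21.2 CPM after 20.9 ± 6.78 at D0 and 125 ± 28.3 at D2, and was at 45.9 ± 5.04 CPM at D6 (SD, n = 3 each). Pdlim1, which joins actin filaments through α-actinin, had 82.9 ± 10.5, 257 ± 46.4, 177 ± 37.6 and 89.5 ± 5.23 CPM on the 4 days (SD, n = 3 each) and so ended where it began. Col4a2, a chain of basement membrane collagen, peaked at 47.7 ± 9.06 CPM at D2 and Crtap, which helps to modify collagen prolines, at 42.3 ± 15.5 CPM (SD, n = 3 each), 2.34 and 2.18 times their higher flanks. Of the 22 matrix and adhesion genes tested, 2 were higher and 5 lower at D2 and 1 and 8 at D4. Emid1, an extracellular protein named here after its values were seen, had 0 reads at D0 and 75.9 ± 12.3 CPM at D4 (SD, n = 3), at least 40.0-fold higher than D0 on the floor of 3 reads a day.

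Mt2 (metallothionein 2), which binds zinc and copper, had means of 60.4 ± 8.63, 185 ± 25.0, 97.1 ± 8.87 and 36.3 ± 3.97 CPM on the 4 days (SD, n = 3 each). Its neighbour in function, Mt1, was at 251, 281, 126 and 55.7 CPM on the same days and is not a member. Of the 21 redox and metal genes tested, 3 were higher and 8 lower at D2 and 3 and 9 at D4. Grrp1, a protein of unclear function, was at 11.1, 9.78 and 11.6 CPM at D0, 24.9, 74.7 and 27.1 CPM at D2, 7.93, 2.3 and 4.74 CPM at D4 and 0, 2.33 and 0 CPM at D6. Its D2 mean is carried by D2 replicate 2, although all 3 D2 libraries are above all others, and against the single read at D6 the pooled ratio was 49.4 (exact 95% interval 8.11 to 2030).

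The genes differed in where they ended and how fast they came down. At D6, 22 genes were still at least 2 times their D0 mean, among them Crabp1, Crabp2, Irx3, Sox1, Mdk and Sfrp2. Another 9 were at least 2-fold below D0, among them Slc2a1, Serpinf1, Prrx2, Uap1l1, Grrp1 and Prtg, and 60 were within 2-fold of it. Of the 74 D2 genes, 25 had fallen at least 2-fold short of their D2 mean by D4, and 14 had a D4 mean that on its own was at least 2 times both D0 and D6. The latter include Crabp2, Metrn, Mdk, Sfrp2, Irx3, Serpinf1, F11r and Car3. Of the 17 D4 genes, 9 were at least 2 times D0 at D2 already. At D0, 8 genes had 3 reads or fewer in all.

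**Figure D4:**
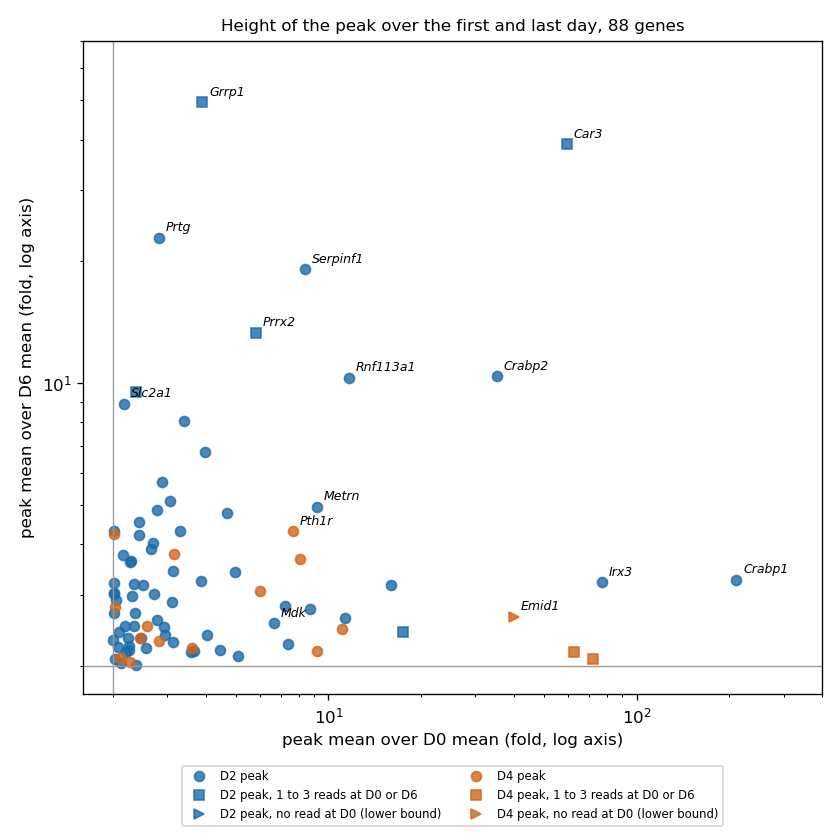
Peak mean divided by the D0 mean (horizontal) and by the D6 mean (vertical) for 88 of the genes, both log axes, with lines at the 2-fold limits of the rule. Blue marks D2 peaks and orange D4 peaks, and squares use pooled reads where D0 or D6 had 1 to 3 reads and triangles are lower bounds where D0 had none. Crabp1 (211 over D0, 3.27 over D6) lies low on the right and Prtg (2.81 and 22.9) high on the left. Car3 and Grrp1 lie higher than Prtg, at 38.9 and 49.4 over D6.

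Many genes lie close to the limits of the rule. Just inside the 2-fold limit were Camk1 (2.004), Haus5 (2.006) and Cenph (2.007), and just outside were Fam111a (1.999), Lgals1 (1.998) and Opa1 (1.996). At the level limit, Rab13 (30.22 CPM), Cox6b2 (30.75) and Bdh2 (30.77) were inside and Car13 (29.79), Ptges3l (29.68) and Hs3st3a1 (29.42) outside. There were 28 members under 2.2 times, 48 genes from 1.8 to 2 times with a sufficient level, and 1024 genes past the fold with a peak mean under 30 CPM. When each library was left out in turn, 45 of the 91 genes met the rule every time, and of the 15 genes with the largest ratio 13 did. Grrp1 missed it without D2 replicate 2. Of the other genes named above, Slc2a1 missed it without D0 replicate 3, Col4a2 without D6 replicate 2, Dgkz without D2 replicate 3, Gas1 without D4 replicate 1 or D6 replicate 3, and Lfng and Crtap each without any of 3 libraries taken singly, in D2 and D6 for Lfng and in D0, D2 and D6 for Crtap. Among the augmin and centromere genes, Haus2 missed it without D0 replicate 2, Haus5 without D0 replicate 1 or D2 replicate 1, Cenph without either of these or D2 replicate 2, and Cenpn without either of these or D2 replicate 3, whereas Haus1 and Cenpk met it every time. Plscr1 and, of the genes next to the limits, Camk1, Rab13, Cox6b2 and Bdh2 also missed it without at least 1 of the libraries. With the levels rescaled by trimmed mean of M-values, which shifts all genes by -0.19, -0.12 and -0.23 on the log2 scale for D2, D4 and D6 against D0, 74 genes met the rule and 67 of them were among the 91, with 24 of the 91 lost. Slc2a1, Crtap, Haus2, Haus5, Cenph, Cenpn, Plscr1, Camk1, Rab13 and Bdh2 were among those lost. With reads of mapping quality of at least 10, 131 genes met it, sharing 58 with the 91. Arrb1, Unc5a, Slc2a1, Dgkz, Emid1, Hs6st2, Haus1, Haus2, Cenph, Rab13 and Bdh2 were among the others, which did not. With every library thinned to the size of the smallest, 185 genes met it, sharing 63 with the 91, and Prtg, Uap1l1, Haus2, Cenph, Rab13, Cox6b2 and Bdh2 were among those lost. For 29 of the 91 genes over 50% of reads had a lower mapping quality, and for 43 under 10% had.

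The 1050665 mRNA reads of the same libraries that did not carry the authors' PASS tag for tail quality were not used by the rule. In them, 67 of the 91 genes were again higher on their peak day than on D0 and D6, beside 36.0% of the 5133 genes of sufficient level, and 41 were at least 2 times higher, beside 3.64%. The median ratio in these reads was 1.83. They come from the same RNA samples and sequencing runs, so they repeat the counting and not the experiment.

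The markers of cell types changed over the same days. Of 10 pluripotency markers tested 0 were higher and 8 lower at D2 and at D4, and their summed level went from 2819-2931 CPM in the D0 libraries to 623-772 CPM at D2 and 574-634 CPM at D4, with Pou5f1 at 0 at D4. Of 23 neuron markers, 5 were higher and 3 lower at D2 and 18 and 0 at D4, and their sum was 678-763 CPM at D0, 573-813 CPM at D2, 2462-2993 CPM at D4 and 4818-5494 CPM at D6. Of 7 endoderm markers, Col4a2 included, 1 was higher and 2 lower at D2 and 0 and 4 at D4, with sums of 441-489, 233-278, 163-223 and 231-276 CPM. Caudal epiblast and mesoderm genes had 1 higher and 3 lower of 6 at D2 and 0 and 3 at D4 (sums 181-205, 65.1-74.7, 33.2-50.5 and 51.3-65.4 CPM), and glia and other cell type markers 1 and 2 of 6 at D2 and 1 and 3 at D4 (sums 145-203, 66.5-129, 239-258 and 660-714 CPM). The part of these shifts in the levels of the 91 genes was not tested. The remaining lists held no member: at D2, 6 of 34 cholesterol synthesis genes were higher and 0 lower, 0 and 14 of 25 amino acid stress genes, 1 and 1 of 13 p53 targets, 2 and 3 of 13 immediate early genes, and 0 and 4 of 10 BMP and TGF-β genes.

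The poly(A) tail was not used by the rule and could be tested. Library medians over all reads were 100.2-105.5 nt at D0, 96.6-98.4 nt at D2, 95.2-98.2 nt at D4 and 100.6-102.7 nt at D6. The mean log2 tail length of each gene with at least 5 reads in every library compared was tested with limma over all genes. Of 45 members tested between D4 and D0, Mdk and Ndufa1 had shorter tails at D4 and 0 had longer ones, beside 2.57% of all genes called. At D6 against D0 the same 2 of 30 were called (4.3% of all genes), at D4 against D2 Mdk, Ndufa1 and Crabp1 of 50 (0.623%), and at D6 against D2 Mdk and Ndufa1 of 35 (2.42%). Mdk, Ndufa1 and Crabp1 had 4597, 414 and 937 reads at D4, while the median of the 91 genes on the peak day was 36.0. The part of read depth in these calls was not tested. No member was called at D2 against D0 among 43 (2.49% of all genes) or at D6 against D4 among 36 (0.115%) by limma, where 6 members were shorter and 0 longer, and 0 shorter and 2 longer, at an unadjusted p under 0.05. Over all genes, 8.8% were shorter and 1.58% longer by that measure at D2 against D0, and 0.955% shorter and 7.8% longer at D6 against D4. Counted without a test, 31 of 43 members had shorter tails at D2 than at D0, beside 60.2% of all genes, and 30 of 36 had longer tails at D6 than at D4, beside 68.8% of all genes. The median differences were -0.09 and 0.09 on the log2 scale, beside -0.04 and 0.07 over all genes.

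The tails of Mdk were shorter at D4 and D6 than at D0 and D2. The median tail was 111.4, 108.7 and 109.0 nt in the D0 libraries, 100.5, 103.4 and 102.5 nt at D2, 92.8, 93.0 and 95.3 nt at D4 and 98.1, 91.1 and 89.4 nt at D6. No D4 library overlapped with D0 or D2. The log2 difference was -0.23 (SE 0.04) at D4 against D0 (limma adjusted p = 0.000114) and -0.14 (SE 0.03) at D4 against D2 (limma adjusted p = 0.00171), and at D6 it was -0.24 (SE 0.04) against D0 (limma adjusted p = 2.3e-05) and -0.15 (SE 0.03) against D2 (limma adjusted p = 0.000107). At D2 against D0 the difference of -0.09 did not pass (limma adjusted p = 0.325). Mdk kept its calls in every alternative run, with adjusted p values up to 0.0386 between D4 and D2.

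Ndufa1 and Crabp1 had shorter tails after D2. The median tail of Ndufa1 was 90.4, 108.4 and 101.8 nt at D0, 107.9, 104.2 and 100.8 nt at D2, 78.1, 85.3 and 89.9 nt at D4 and 85.5, 82.0 and 101.3 nt at D6, so that D4 lay below D2 and D0 while D6 overlapped with both. Its log2 difference was -0.32 (SE 0.06) at D4 against D2 (limma adjusted p = 0.00291) and -0.27 (SE 0.07) at D4 against D0 (limma adjusted p = 0.00818). Without D2 replicate 1 or 2 the first missed the threshold at limma adjusted p values of 0.0638 and 0.0864, and the second did so without D0 replicate 2 (0.162), D0 replicate 3 (0.0554) or D4 replicate 1 (0.0997), and with mean tail in nt in place of the log scale (0.206). At D6 the differences were -0.24 against D0 (limma adjusted p = 0.0406) and -0.28 against D2 (limma adjusted p = 0.00368). The former was lost without D0 replicate 2 (0.242) or 3 (0.101) and without D6 replicate 1 (0.156) or 2 (0.114), and also with mean tail in nt (0.282), an unweighted fit (0.0967), the replicate number as a block (0.0554) or a minimum of 3 reads (0.053), and the latter was lost without D6 replicate 2 (0.0584). Crabp1 had 12 reads at D0, too few for a test, and medians of 135.1, 129.2 and 131.9 nt at D2, 114.4, 117.9 and 113.2 nt at D4 and 122.5, 124.6 and 125.4 nt at D6. Its tails were shorter at D4 than at D2 by 0.20 (SE 0.04) on the log2 scale (limma adjusted p = 0.00463), which missed the threshold without D2 replicate 1 (0.0712) or D4 replicate 3 (0.0734), and at D6 the libraries lay between those of D4 and D2 (limma adjusted p = 0.138 against D2).

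**Figure D5:**
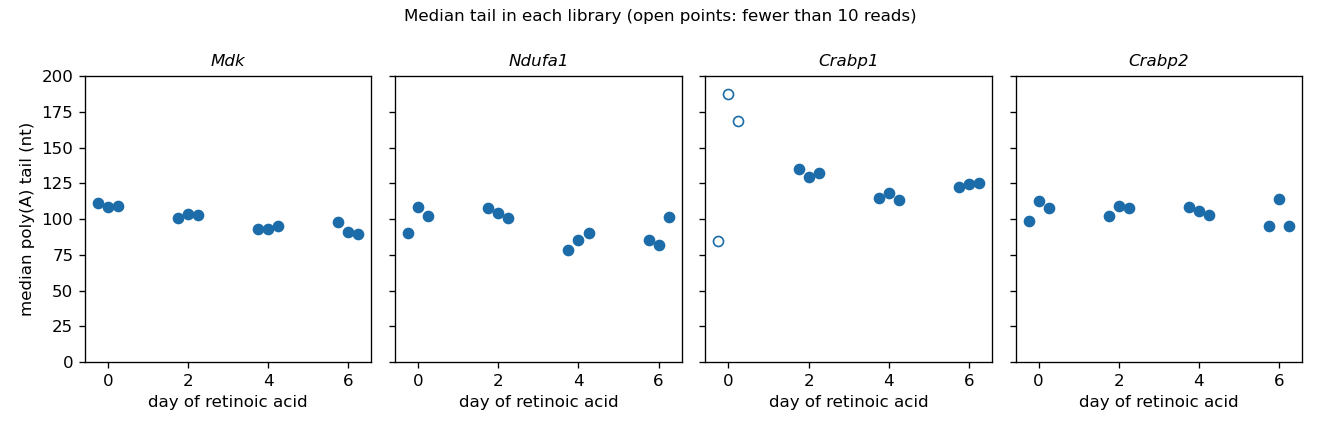
Median poly(A) tail in nt (axis from 0) in each library by day for Mdk, Ndufa1, Crabp1 and Crabp2, with open points for libraries with fewer than 10 reads of the gene. Mdk goes from 108.7-111.4 nt at D0 to 92.8-95.3 nt at D4, and Crabp1 from 129.2-135.1 nt at D2 to 113.2-117.9 nt at D4.

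The share of the leading transcript among a gene's reads was the other measure that the rule did not use. It could be tested for 23 members between D2 and D4 and for 16 between D4 and D6, and 0 were called, as were 0.0% of the 1459 genes tested between D2 and D4 and 0.0% of the 2462 between D4 and D6 by limma. At an unadjusted p under 0.05 there were 3 and 2 members, beside 8.98% and 8.53% of all genes tested. The largest difference was in Cercam, whose leading transcript went from 92.6% of the reads at D2 to 66.3% at D4, a difference of -26.33 percentage points (SE 5.7, limma adjusted p = 0.139). In Slc2a1 the share was 56.9% of D2 reads, 76.0% of D4 reads and 55.0% of D6 reads, with limma adjusted p values of 0.404 and 0.422. Leading transcripts of the members had a median length of 2203 nt, beside 3020 nt over the 9309 genes with at least 30 reads (99.2% had a length).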

How the data were processed

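The authors called bases with Guppy, mapped the direct RNA reads with Minimap2 2.20 to mm10 transcripts (GENCODE), measured tails with Nanopolish and split the replicates with Deeplexicon. The deposited table has a line per alignment with the transcript, a tail length in nucleotides, a mapping quality score and a barcode confidence fraction, with no normalization by the authors. A second deposited table holds the authors' log2 fold changes and p-values from DESeq2 and was not used. The members and gene lists were chosen with earlier results of these data known, and roles were assigned after the members were known. Reads with the PASS tag on nuclear mRNA, pseudogenes left out, were tallied per gene and library and expressed as CPM of such reads. Genes with at least 30 reads were fitted with limma-voom (limma 3.58.1, R 4.3.3) over all 12 libraries, with factors by trimmed mean of M-values, and p-values adjusted over all genes by Benjamini-Hochberg. The plan named limma because the reads were tallied here. Tails (mean log2 of length in nt, with lengths under 1 set to 1) and isoform shares were fitted with limma weighted by reads. Each fit was tested on simulated data. Members were named for a place in a list, the 15 largest ratios, the 10 highest peaks or a tail call, and up to 4 other genes were named per list by size of change. The replicates are biological replicates of a day, and p-values measure the spread between them. Intervals cover counting error only. Alternatives included other limits, scalings, read filters, thinning and leaving out each library. Python 3.11.15, pandas 2.3.3, numpy 2.4.6, scipy 1.17.1 and matplotlib 3.10.9 were used. Some genes, among the members and the lists, are not reported here singly, though they are in the counts and were left out of figures.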

Additional observations from a re-analysis of the deposited data

How the results depend on the processing

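The number of genes that met the rule was 507 in the reads without the PASS tag (43 of them members) and 185 with libraries thinned to the smallest (63 of them members), and with other limits it was 335 at 1.5-fold, 24 at 3-fold, 150 at 20 CPM and 51 at 50 CPM. Leaving out 1 library at a time gave 89 to 126 genes, of which 77 to 90 were members. Depth limits the smaller peaks, since 30 CPM is 16.4 reads at D2. Taking D6 from the runs of the earlier or the later month alone, an alternative chosen after seeing the data as were the reads without the tag and the protein-coding filter, gave 92 and 114 genes. Scaling by library totals turned the D2 calls from 417 higher and 588 lower to 720 and 373.

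Counts of abundance calls were 1005 at D2 against D0, 2356 at D4 against D0, 3499 at D6 against D0 and 778 at D6 against D4. With no read minimum the first was 1615. With mapping quality of at least 10 they were 633 at D2, 2201 at D6 and 394 at D6 against D4, and with thinning 289, 645, 1179 and 189. With limma on log2 CPM they were 1329 at D4, 2311 at D6 and 259 at D6 against D4. Leaving out 1 library gave 645 to 1056, 1802 to 2396, 2790 to 3529 and 438 to 793, the lowest without D2 replicate 2, D4 replicate 2, D6 replicate 2 and D4 replicate 2.

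Counts of tail calls against D0 were 85 for D2, 136 for D4 and 236 for D6, those against D2 were 21 for D4 and 81 for D6, and 6 at D6 against D4. Mean tail in nt gave 382 at D6 against D0, with 275 longer and 107 shorter in place of 109 and 127, and 65 longer and 32 shorter at D6 against D2 in place of 32 and 49, so that the prevailing direction turned in both, and 18 at D6 against D4. At D6 against D0 the direction also turned without D0 replicate 3, with 131 longer and 115 shorter. Unweighted fits gave 48 at D6 against D2 and 1 at D6 against D4, mapping quality of at least 10 gave 51 at D6 against D2, and at least 10 reads gave 3 at D6 against D4. Leaving out 1 library gave 4 to 112, 111 to 141, 155 to 246, 8 to 25, 40 to 73 and 0 to 5, the first lowest without D2 replicate 3, and 0 to 16 and 0 to 1 for isoform shares, the highest without D4 replicate 3.

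Same-numbered replicates deviated together in part: 9 of 18 pairs had a correlation over 0.1 (-0.15 to 0.38 over 1062 genes), short of every pair, and 8 of 12 libraries correlated best with their own number, a hint from the data and not from the design. With the replicate number as a block the tail counts were 99, 141 and 223 against D0, 22 and 68 against D2 and 2 at D6 against D4, 4 isoform shares were called at D4 against D2, and the tail of Ndufa1 at D6 against D0 had an adjusted p of 0.0554. None of the single-gene tail results changed sign under these alternatives. Of the single-gene tail results under alternatives, 91 kept their call and 17 lost it, all of them for Ndufa1 or Crabp1. The causes were not tested.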
